A study of Mus musculus with 10 samples.

Results

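Prune2, a large gene that codes for a protein with a BCH domain, is described here in the aortae of young and old mice. It is 1 of 55453 gene lines in the count table, and it was chosen by its counts in old and young aortae, which were higher in the old. That difference is therefore given as a description and was not tested. The 10 libraries are bulk RNA of whole aortae, 1 library per mouse, and all mice were male C57BL/6. The young group held 5 mice aged 14.5 weeks, and the old group held 5 mice aged 92.5 weeks by the labels of the samples. No mouse carried an engineered allele or received an agent by those labels. The mice were perfused with saline, all were sacrificed at the same time, and each aorta was freed of the fat around it before RNA extraction. In bulk tissue, fewer cells of a type and less RNA per cell cannot be told apart.

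The BCH domain is shared with BNIP2 and with the GTPase-activating protein ARHGAP1, and proteins that carry it can bind small GTPases and their regulators. The PRUNE2 protein, also known as BMCC1 or BNIPXL, has a region related to the phosphodiesterase PRUNE1 near its start and the BCH domain near its end. It is best known from the nervous system. In human, the noncoding RNA PCA3 lies antisense within a PRUNE2 intron, and pairing of these RNAs is linked to editing by ADAR enzymes.

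In the GENCODE M21 annotation of GRCm38, Prune2 lies on the forward strand at chr19:16956118-17223932 and spans 267.8 kb. It has 9 transcript models, of which 3 are coding. The longest coding model has 12512 bases with a coding length of 9252 bases. The other coding models start 180.6 kb downstream of the first start site and have coding lengths of 882 and 969 bases. A count per gene adds up reads from all models, so that long and short forms were not separated. Reads were counted without a stated strand setting, which leaves the share of any antisense RNA at the locus unknown.

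The sequence upstream of the first start site is shown because it holds a CArG box, the element bound by serum response factor, which smooth and striated muscle genes carry in their promoters. RefSeq's promoter table (GRCm38.p6) has 1 entry for Prune2, a window of 300 bases with 250 bases before the start site and 50 after it. The 150 bases before the start site, chr19:16955968-16956117 on the forward strand, are printed 5′ to 3′. Capitals mark the CArG box, whose first base lies at position -80, and the GC boxes at -98 and, on the other strand, -26, counted back from the start site.
Prune2 upstream: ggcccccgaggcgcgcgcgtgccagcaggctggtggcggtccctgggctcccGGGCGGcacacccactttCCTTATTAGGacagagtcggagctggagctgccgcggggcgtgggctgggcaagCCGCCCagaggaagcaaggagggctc
The window is rich in G and C, at 72.7% against a median of 52.7% over promoters in the table, and 93.9% of promoters have a lower share. RefSeq also has its earliest Prune2 start 450 bases upstream, so the window lies inside that longer gene span. Motifs were searched on both strands over the 300-base windows of 32851 promoters, and those in the Prune2 window do not overlap each other. A CArG box was found in 1.63% of promoters and a GC box (GGGCGG) in 35.7%. The E-box CACGTG, present in 7.15% of promoters, and TATAAA, present in 13.6%, have no match in the Prune2 window. A match describes letters in the window and is not evidence of binding.

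Among the marker lists used below, 6 genes have a CArG box in their RefSeq window. Their matches, each with 10 bases on either side, are printed on the gene's own strand with the CArG box in capitals, so that the Prune2 letters can be read beside those of muscle genes.
Prune2 (chr19:16956028-16956057, forward): cacccactttCCTTATTAGGacagagtcgg
Myl9 (chr2:156775293-156775322, forward): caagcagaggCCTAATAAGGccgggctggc
Actc1 (chr2:114052903-114052932, reverse): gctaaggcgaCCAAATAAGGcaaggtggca
Myl7 (chr11:5898824-5898853, reverse): ccattcctctCCTTATTTGGgcctctgggt
Acta1 (chr8:123894829-123894858, reverse): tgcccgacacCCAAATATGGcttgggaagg
Myh4 (chr11:67237698-67237727, forward): aaagagattgCCAAAAATGGttttgccaag
Elavl4 (chr4:110287538-110287567, reverse): acagatggtcCCATAAATGGatgtaaaaag
Myl9, a smooth muscle myosin light chain, was the match among 9 smooth muscle markers with a window. Actc1 and Myl7 were found among 7 cardiac markers, Acta1 and Myh4 among 6 skeletal muscle markers, and Elavl4 among 8 neuron markers. The windows of the 3 genes of the BCH family and Prune1 list that the table holds had no CArG box.

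The level of Prune2 was several times higher in every old aorta than in any young aorta. The deposited values are raw counts, and Prune2 had 219, 172, 274, 239 and 235 reads in young mice 1 to 5 and 1237, 951, 1232, 1234 and 1032 reads in old mice 1 to 5. In CPM, the counts per 1000000 reads on genes after edgeR's TMM scaling, the young mice had 10.3, 7.99, 12.7, 10.6 and 11.1. The values of the old mice were 57.3, 48.2, 53.3, 55.2 and 46.3 CPM. The groups did not overlap, since the highest young mouse was young 3 and the lowest old mouse was old 5, and their ratio was 3.66. The largest ratio of an old to a young mouse was 7.18.

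On average, Prune2 went from 10.5 ± 1.68 CPM (SD, n = 5) in young to 52.1 ± 4.66 CPM (SD, n = 5) in old aortae, a 4.94-fold ratio of means. The log2 fold change of the fit across all genes was 2.31 (SE 0.11). Relative to its mean, Prune2 varied less among old than among young mice, with coefficients of variation of 8.94% and 15.97%; this difference in spread was not tested. Total counts were 19640401 to 22886153 per library, so that the smallest Prune2 count of 172 is far from the floor of counting.

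**Figure D1:**
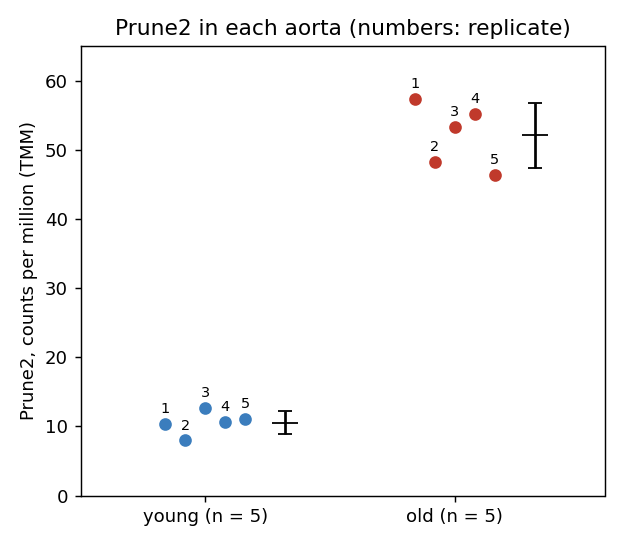
Prune2 level of each aorta in CPM after TMM scaling (vertical axis from 0), for 5 young and 5 old mice, with the replicate number above each point and the mean ± SD beside each group. Young mice lie between 7.99 and 12.7 CPM and old mice between 46.3 and 57.3 CPM.

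Against other genes, 29 of the tested genes had a larger log2 fold change than Prune2, which took place 30 of 14614. Most of them were rarer. Among the 5612 genes at least as abundant as Prune2, it took place 4, after Sphkap (log2 fold change 3.02, SE 0.30), which codes for an anchoring protein of protein kinase A, Apod (2.65, SE 0.26), which codes for a lipid carrier, and Igfbp2 (2.57, SE 0.56), which codes for a carrier of insulin-like growth factors. The SE of Prune2 was the smallest of these 4. By CPM, Prune2 stood above 36.8% of tested genes in young and 74.4% in old aortae.

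Prune2 is long, so its level per length was lower than its CPM implies. Per kb of the 20297 exonic bases of all models together, Prune2 had 0.519 CPM in young and 2.57 CPM in old aortae. On this scale it stood above 13.3% of 14516 genes in young and 36.1% in old aortae. If all reads came from the longest model, the level per kb would be 0.842 in young and 4.16 in old aortae, and if all came from the shortest coding model, of 1803 bases, it would be 5.84 and 28.9. Whether young and old aortae used the same mix of models was not tested, and the absolute level differs with the model assumed.

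Relatives of Prune2 were compared next, since the BCH domain and the PRUNE region each occur in other genes. Over all tested genes, 11.5% were called between old and young aortae, 6.48% higher in old and 4.99% lower, by edgeR's quasi-likelihood test with a Benjamini-Hochberg adjusted p below 0.05. DESeq2 called more, 2304 of the 14614 tested genes, 1223 of them higher. Groups that do not overlap are to be read beside all 14614 tested genes. Every old mouse lay above every young mouse in 821 of them and below in 620. Of 6 genes that share a domain with Prune2, 4 were tested and 0 were called by edgeR with TMM scaling over all mice. DESeq2 called Arhgap1, and the unadjusted edgeR p was below 0.05 for Arhgap1 and Arhgap8. Bnipl and Atcay (caytaxin, a BCH protein of neurons) had 1 to 4 reads in a group of 5 libraries and were not tested.

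Prune1, a phosphodiesterase and the nearest relative of the first region of Prune2, had 23.7 to 24.7 CPM in young and 24.0 to 30.0 CPM in old mice. Its groups overlapped, with a log2 fold change of 0.12 (SE 0.07) and an edgeR adjusted p of 0.291. Bnip2, which shares the BCH domain, had 309 ± 23 CPM (SD, n = 5) in young and 336 ± 21.2 CPM in old aortae (log2 fold change 0.12, SE 0.07, edgeR adjusted p 0.275). Arhgap1, which codes for a GTPase-activating protein, had 105 ± 5.59 and 121 ± 8.71 CPM (SD, n = 5), with a log2 fold change of 0.20 (SE 0.06) and an edgeR adjusted p of 0.0574. DESeq2 called Arhgap1 higher with an adjusted p of 0.0284. Under other settings edgeR called it higher too, with upper-quartile scaling (adjusted p 0.0286) and with library size alone (0.0324). It was also called by edgeR without young 5 (adjusted p 0.0449) and without old 2 (0.0237). Arhgap8, a related protein, was rare, with 1.07 ± 0.209 CPM in young and 0.713 ± 0.130 CPM in old aortae (SD, n = 5; edgeR adjusted p 0.125).

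Per kb of exonic length, the order in young aortae was Bnip2 with 89.4 CPM per kb, Arhgap1 with 24.6, Prune1 with 6.65, Prune2 with 0.519 and Arhgap8 with 0.302. In old aortae the values were 97.3, 28.2, 7.23, 2.57 and 0.201 CPM per kb in the same order. No mice of neighbouring genes in this order overlapped in either group, and the closest were Prune2 and Arhgap8 in young aortae. This order holds for the exonic bases of all models together. With all Prune2 reads on its shortest coding model, Prune2 would have 5.84 CPM per kb in young aortae, below Prune1. In old aortae it would then have 28.9 CPM per kb, above Arhgap1, so that the order would differ between ages. Within groups, the 4 tested relatives had Pearson correlations of 0.25 to 0.32 with Prune2, and of 0.30 to 0.53 without young 2.

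**Figure D2:**
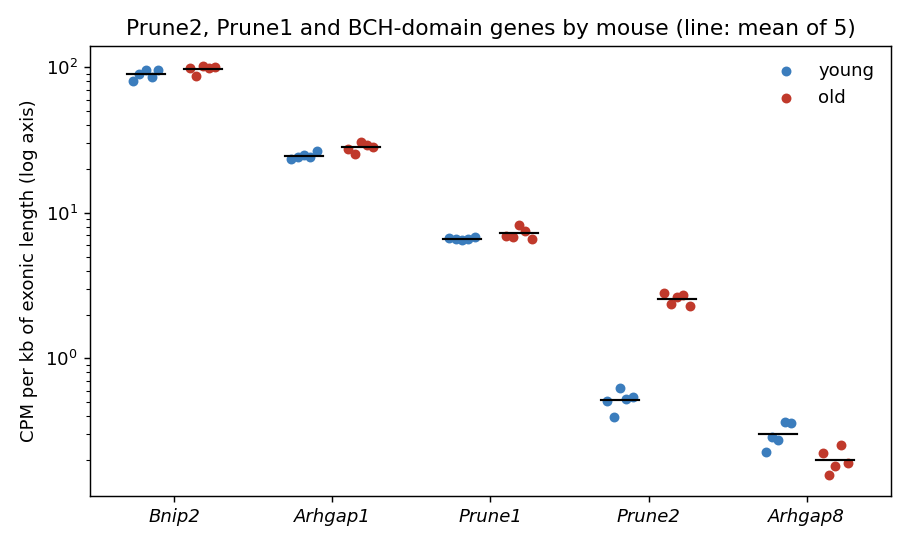
Level of Prune2 and of the 4 tested genes that share a domain with it, in CPM per kb of exonic length on a log axis, with a point for each mouse and a line at the mean of 5 mice. With the exonic length of all models together, the order of the 5 genes was the same in young and old aortae. On that length Prune2 shifted from 0.519 to 2.57 CPM per kb, and the order depends on the Prune2 model assumed.

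Adenosine deaminases that edit RNA were examined for the link of PRUNE2 with editing. Adar, which codes for the main editing enzyme of most tissues, rose in old aortae. Its CPM were 39.0, 39.2, 38.2, 37.2 and 36.8 in the young mice and 49.6, 52.6, 40.6, 47.9 and 47.3 in the old mice. The groups did not overlap, and old mouse 3 lay closest to the young mice. The log2 fold change was 0.32 (SE 0.07), with an edgeR adjusted p of 0.0081. Adarb1, the other tested editing enzyme, had 220 ± 22.5 CPM in young and 191 ± 11.2 CPM in old aortae (SD, n = 5) and overlapping groups, with an edgeR adjusted p of 0.0905. Adarb1 was called lower by DESeq2 (adjusted p 0.0482) and by edgeR without young 1 (adjusted p 0.0204). Adarb2 had 6 reads over the young and 4 over the old libraries and was not tested. Within groups, Adar had a correlation of -0.21 with Prune2 and Adarb1 of -0.34, which without young 2 were -0.13 and 0.14, so that the sign for Adarb1 rests on that mouse.

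BMCC1 has been linked to cell survival, and 20 apoptosis and survival genes were listed for that reason. Of the 19 tested, edgeR called 2 higher and 0 lower in the old group, and DESeq2 called 2 higher and 2 lower. At an unadjusted edgeR p below 0.05, 4 were higher and 3 lower. The share of all genes at that limit is not given here. Bid, which carries the signal of death receptors to mitochondria, rose from 3.78 ± 0.538 to 6.51 ± 0.855 CPM (SD, n = 5), with a log2 fold change of 0.79 (SE 0.14) and an edgeR adjusted p of 0.0030. Trp53, the gene of the tumour suppressor p53, rose from 42.8 ± 1.55 to 50.3 ± 0.972 CPM (SD, n = 5), with a log2 fold change of 0.23 (SE 0.05) and an edgeR adjusted p of 0.0086. In neither gene did the groups overlap, as was so with old above young for 821 of 14614 tested genes. Bcl2, Bax and Akt1 were among the 17 that did not pass, with log2 fold changes of 0.02, 0.07 and 0.08. So were Casp8 (0.19) and the genes that DESeq2 called lower, Bak1 (-0.20) and Mcl1 (-0.16). The 2 of 19 called higher are to be read beside the 6.48% of all tested genes.

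The genes next to Prune2 were measured to see whether the difference extended along the chromosome. Within 1 Mb of the gene, 34 other genes are annotated, 17 had a count and 8 were tested, and among those 0 were called higher and 2 lower by edgeR. Gnaq, which codes for the Gq alpha subunit that couples contractile receptors to phospholipase C, had 103, 103, 108, 98.3 and 103 CPM in the young and 90.5, 81.8, 83.5, 96.2 and 88.5 CPM in the old mice. The groups did not overlap, though old 4 was close to young 4. Gnaq fell by 0.23 on the log2 scale (SE 0.06, edgeR adjusted p 0.0190).

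Gcnt1, which codes for an enzyme that branches O-glycans and lies downstream of Prune2, had 22.3, 13.8, 29.5, 15.4 and 15.4 CPM in young and 11.3, 8.27, 7.62, 12.8 and 6.82 CPM in old mice. Every old mouse lay below every young mouse, with little space between old 4 and young 2. Gcnt1 fell by 1.04 on the log2 scale (SE 0.24, edgeR adjusted p 0.0196), opposite in sign to Prune2. This call was lost without old 3 (adjusted p 0.0544).

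The closest tested gene upstream, Vps13a, which codes for a lipid transfer protein, had a log2 fold change of 0.12 (SE 0.06, edgeR adjusted p 0.234). Rfk, the riboflavin kinase gene, had -0.05 (SE 0.07, adjusted p 0.701), and Pcsk5, the gene of a proprotein convertase, had -0.10 (SE 0.10, adjusted p 0.579). Cep78 (0.29, adjusted p 0.213), Gna14 (-0.02, adjusted p 0.972) and the processed pseudogene AC133509.1 (0.08, adjusted p 0.903), whose reads may be shared with its parent gene, did not pass either. None of the 8 neighbours was higher at an unadjusted edgeR p below 0.05 or by DESeq2. The counts of 0 higher and 2 lower among 8 are to be read beside the 6.48% of all tested genes called higher and the 4.99% called lower. No exon of another annotated gene overlaps the exons of Prune2.

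**Figure D3:**
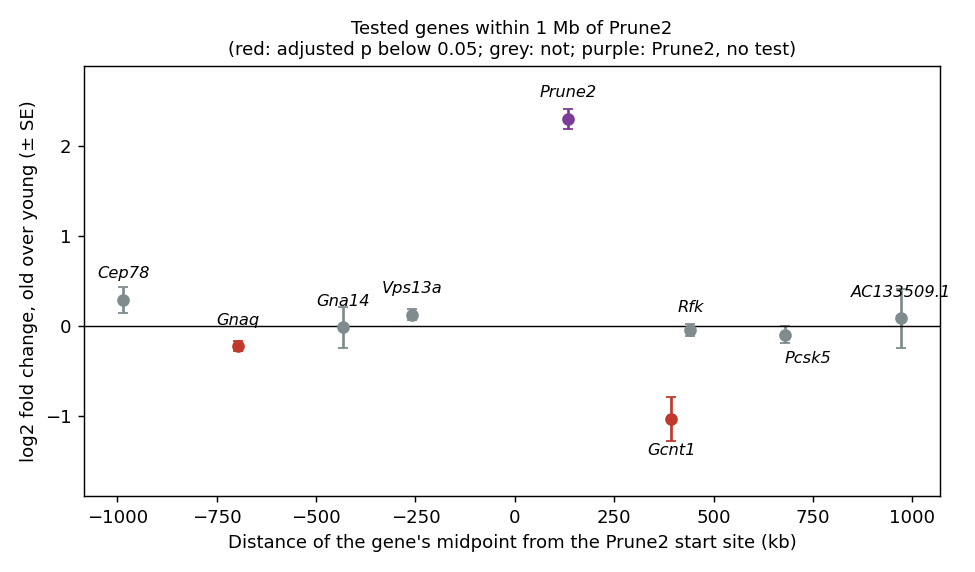
Log2 fold change of old over young aortae (vertical axis, bars are SE) for Prune2 and the 8 tested genes within 1 Mb, against the distance of each gene's midpoint from the Prune2 start site in kb. Prune2 lies at 2.31, and the others lie between -1.04 and 0.29, with Gcnt1 and Gnaq below an adjusted p of 0.05.

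To see which genes varied with Prune2 among mice of the same age, group means were removed from log2 CPM and Pearson correlations were computed over the 10 mice. These are descriptions without a p. The 10 points share their libraries and scaling, and the spread of Prune2 within groups rests mainly on 2 young mice. Young 2, the lowest, accounts for 48.4% of the within-group sum of squares and young 3, the highest, for 25.9%, while no other mouse exceeds 9.06%. Young 2 also stood apart in skeletal muscle markers, with a summed level of 52.8 CPM over 8 genes, compared with 7.80 to 11.2 CPM in the other young and 9.21 to 12.4 CPM in the old mice. The correlation of that sum with Prune2 was -0.78, and -0.16 without young 2.

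A correlation of 0.8 or more with Prune2 was reached by 60 genes and one of -0.8 or less by 33 genes. Together these 93 genes are fewer than usual, since the median tested gene had 227 partners at the same limits and 13.8% of genes had fewer than Prune2. Of the 60 genes, edgeR called 8 higher and 2 lower in the old group, and of the 33 genes 5 higher and 0 lower. By DESeq2 these were 9 and 4, and 5 and 1, and of the 33 genes 2 were lower at an unadjusted edgeR p below 0.05. These shares, 16.7% and 15.2%, are to be read beside the 11.5% of all tested genes. Without young 2, the 60 genes became 96, of which 14 were shared, and the 33 became 124, of which 12 were shared.

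The gene most like Prune2 within groups was Ireb2 (r = 0.92, and 0.94 without young 2), which codes for an iron regulatory protein that binds mRNAs of iron metabolism. Its CPM in young mice 1 to 5 were 48.1, 46.3, 55.4, 49.8 and 51.9, so that young 2 was lowest and young 3 highest, as for Prune2. In the old mice Ireb2 had 46.8, 43.2, 43.4, 45.5 and 41.7 CPM, with old 1 highest and old 5 lowest, as for Prune2. Between ages, the log2 fold change of Ireb2 was -0.19 (SE 0.06), with an edgeR adjusted p of 0.0634, although DESeq2 called it. The next genes in order were Tmem161b, Uchl3, Eif2b3, Mir703, Slc35e3, Fst, Pcnx4, Cep295nl and Gm53, with correlations of 0.89 to 0.90 and 0.69 to 0.87 without young 2. Among them, Uchl3 codes for a ubiquitin hydrolase, Eif2b3 for a subunit of a translation initiation factor's exchange factor, and Fst for follistatin, which binds activins. None of the 10 was called by edgeR between ages, with adjusted p from 0.0634 to 0.980.

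At the negative end, Mst1r, which codes for a receptor tyrosine kinase, and Mlycd, which codes for malonyl-CoA decarboxylase of fatty acid metabolism, each had r = -0.93. Without young 2, Mst1r had -0.82 and Mlycd -0.90. By the Spearman correlation, Mst1r had -0.68 and Mlycd -0.85. Mlycd had 19.4, 21.1, 16.03, 17.95 and 17.8 CPM in the young mice, with young 2 highest and young 3 lowest, the reverse of Prune2. The others were Pcdhga1, Sf3a2, March3, Pdss1, Gm4366, C230062I16Rik, Tesc and Myl6b, with correlations from -0.91 to -0.85. Without young 2 these ran from -0.90 for March3 to -0.64 for Pdss1. Pcdhga1 shares exons with the other genes of its protocadherin cluster, and Gm4366 is a processed pseudogene, so their counts are uncertain.

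Of these 20 genes, Tesc was the one called between ages by edgeR. It codes for tescalcin, a calcium-binding protein that associates with the sodium-proton exchanger. Its CPM were 4.29, 4.92, 3.37, 4.41 and 3.91 in young and 9.50, 9.89, 11.1, 9.70 and 11.9 in old mice, without overlap, and rose by a log2 fold change of 1.32 (SE 0.12, edgeR adjusted p 3.47e-05). Thus Tesc was higher in old aortae, as Prune2 was. With group means removed, mice with more Prune2 tended to have less Tesc (r = -0.85 over both ages, and -0.80 without young 2). Old 3 departed from this, lying above its group mean in both genes.

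The other called genes with a correlation beyond these limits were named after their values were seen. Among the 60, Tfrc, the transferrin receptor gene whose mRNA is bound by iron regulatory proteins, rose from 18.8 to 24.5 CPM (log2 fold change 0.38, SE 0.08, edgeR adjusted p 0.0115). Ddx58, the gene of the RNA sensor RIG-I, rose from 29.5 to 38.1 CPM (adjusted p 0.0095), and Prickle2, of the planar polarity pathway, from 31.0 to 43.7 CPM (adjusted p 0.0101). Pcsk1, Gpr85, Cd209d, Gm36161 and 3632454L22Rik were higher as well and rare, at 0.267 to 3.37 CPM. B3galt1, a galactosyltransferase gene, fell from 72.7 to 56.4 CPM (adjusted p 0.0121) and Cd24a, a gene of a surface glycoprotein, from 25.8 to 16.2 CPM (adjusted p 0.0117). Among the 33, Wdr86, Ppp1r1b (DARPP-32, an inhibitor of protein phosphatase 1), Nt5c and Ngb (neuroglobin) were higher in old aortae beside Tesc, with Ppp1r1b at 5.47 CPM in young and 9.73 CPM in old aortae (adjusted p 0.0046).

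**Figure D4:**
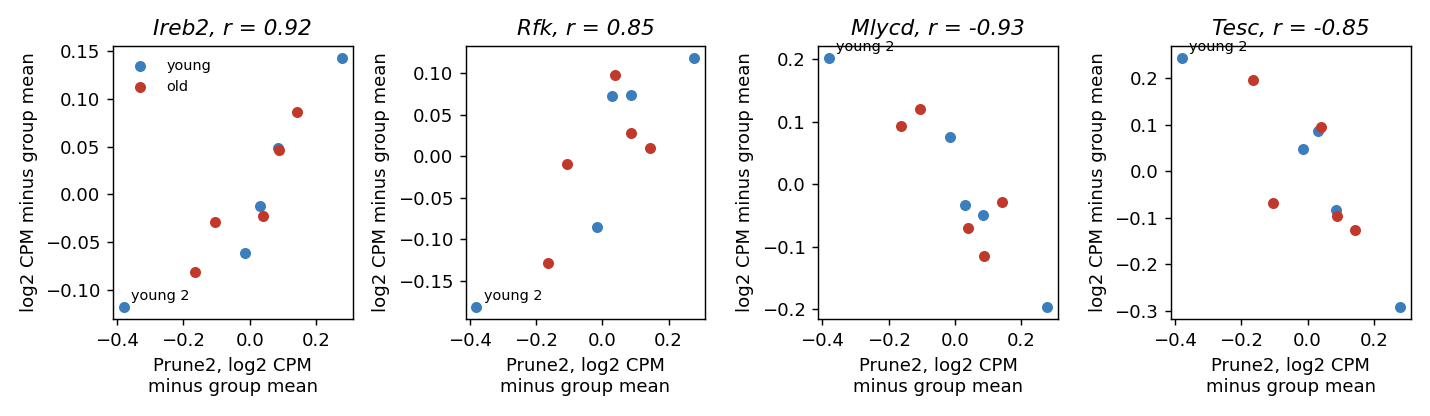
Log2 CPM minus the group mean of Ireb2, Rfk, Mlycd and Tesc (vertical axes) against that of Prune2 (horizontal axes), with a point for each of 5 young and 5 old mice. Ireb2 (r = 0.92) and Rfk (r = 0.85) rise with Prune2, Mlycd (r = -0.93) and Tesc (r = -0.85) fall, and young 2 lies at the left end of each panel.

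The neighbours of Prune2 were also placed on this measure. Their median correlation was 0.57, and 6 of 8 were positive. Rfk had the highest value at 0.85, which 0.144% of tested genes exceeded, followed by Gcnt1 with 0.72, Pcsk5 with 0.65, Vps13a with 0.59, Cep78 with 0.55 and Gnaq with 0.36. Without young 2, Rfk and Gcnt1 each had 0.72, Pcsk5 0.71, Vps13a 0.57 and Gnaq 0.55, whereas Cep78 had -0.05. Gna14 and AC133509.1 had -0.17 and -0.05 with all mice kept, and 0.14 and 0.45 without young 2, so that both signs rest on that mouse. Gcnt1 thus varied with Prune2 among mice of an age and was lower in old aortae. Over all tested genes, 49.98% of correlations with Prune2 were positive, and the median absolute correlation was 0.239.

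When group means were kept, the genes most like Prune2 over the 10 mice were Enpp5, Serinc2, Nfasc, Ric3 and Cntn1, with r of 0.97 to 0.98. Such a correlation contains the age difference by which Prune2 was chosen, so no test is given. Nfasc, which codes for neurofascin, a cell adhesion protein of axons, had 4.90 to 7.01 CPM in young and 44.5 to 57.5 CPM in old mice, a pattern of levels close to that of Prune2. Its correlation with Prune2 within groups was -0.34, and 0.03 without young 2. Enpp5, of the ectonucleotide pyrophosphatase family, had 81.7 to 97.6 CPM in young and 125 to 146 CPM in old mice, and its correlation within groups was 0.79. Serinc2, Ric3 (a chaperone of nicotinic receptors) and Cntn1 (contactin, a partner of neurofascin at axons) had 0.55, 0.11 and 0.42, and without young 2 these were 0.75, 0.56 and 0.16.

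**Figure D5:**
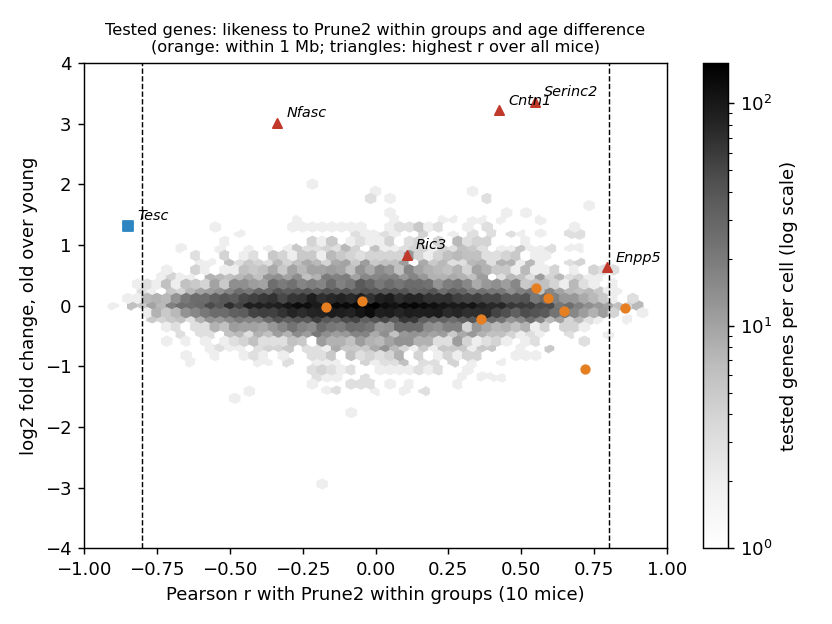
Log2 fold change of old over young aortae (vertical axis) against the within-group correlation with Prune2 over 10 mice (horizontal axis), with grey cells shaded by the number of tested genes and dashed lines at r of 0.8 and -0.8. Nfasc, Serinc2 and Cntn1 lie above 3 on the vertical axis but between -0.34 and 0.55 on the horizontal one, and Tesc lies at -0.85 and 1.32.

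The tissue was checked against markers of the cells an aorta can hold, given as summed CPM per library. Sums of 13 lists were compared by exact two-sided permutation tests of the mean, with Benjamini-Hochberg adjustment over the 13. Counts of single markers called by edgeR are to be read beside the 6.48% of all tested genes called higher and the 4.99% called lower. For DESeq2 the background is 2304 of 14614 tested genes called, 1223 of them higher. The share of all genes at an unadjusted p below 0.05 is not given here. The 12 smooth muscle markers were all tested as genes and summed to 46018 to 53706 CPM in young and 43163 to 52030 CPM in old mice, as an aorta should hold (exact p = 0.365, adjusted 0.431). Of them, edgeR called 1 higher, Smtn (log2 fold change 0.29, SE 0.07, adjusted p 0.0217), and DESeq2 called 2 higher and 1 lower. As Prune2 is known from the nervous system, neuron and Schwann cell markers are given beside it. The 12 neuron markers summed to 80.5 to 92.0 CPM in young and 123 to 158 CPM in old mice (exact p = 0.0079, adjusted 0.0258). Most of that sum was Uchl1, with 60.3 to 68.5 CPM in young and 90.2 to 132 CPM in old mice. Tubb3, Syp and Uchl1 were called higher by edgeR, Stmn2 and Prph were not called, and the other 7 were untested. Of the latter, Snap25, Elavl4, Nefl, Nefm, Th and Dbh had no read in 2 to 8 of the 10 libraries. The 10 Schwann cell markers summed to 53.2 to 99.4 CPM in young and 76.2 to 90.7 CPM in old mice (exact p = 0.119, adjusted 0.155), and 1 of 9 tested was called higher.

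Within groups, the neuron sum had r = 0.16 with Prune2 and the Schwann cell sum r = -0.01, and without young 2 these were 0.32 and -0.32. Macrophage markers summed to 203 to 262 CPM in young and 275 to 508 CPM in old mice, with 4 of 7 called higher by edgeR, and all 7 by DESeq2 and at an unadjusted p below 0.05. Cardiac muscle markers summed to 110 to 150 and 151 to 198 CPM, of which most was Ryr2. Of 4 tested, edgeR called Tnnt2 and Ryr2 higher and Actc1 lower. Tnni3 was lower without passing (log2 fold change -0.74, SE 0.23, edgeR adjusted p 0.0511), and DESeq2 called 2 higher and 2 lower. Myh6, Myl7 and Nppa were untested. Their highest values were 7.43, 2.14 and 0.232 CPM in young and 0.303, 0 and 0 CPM in old mice. Fibroblast markers summed to 11786 to 13767 CPM in young and 8409 to 11514 CPM in old mice, with 3 of 8 called lower and 1 higher. The 3 lower were Col1a1 (mean 2703 to 1441 CPM), Col3a1 (3547 to 1864 CPM) and Pi16 (512 to 342 CPM). Lum rose (250 to 375 CPM), and DESeq2 called 2 higher and 3 lower. For each of these 3 lists the exact p was 0.0079, the smallest that 5 against 5 mice allow, and 0.0258 after adjustment.

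Endothelial markers summed to 949 to 1637 and 489 to 1122 CPM (exact p = 0.0317, adjusted 0.0688), with 1 of 8 called lower by edgeR, 6 lower at an unadjusted p below 0.05 and 5 called lower by DESeq2. Adipocyte markers summed to 303 to 1176 and 141 to 427 CPM (exact p = 0.0476, adjusted 0.0774), and edgeR called 0 of 7, of which 5 were lower at an unadjusted p below 0.05 and DESeq2 called 2. T cell markers summed to 0.377 to 2.07 and 1.81 to 7.97 CPM (exact p = 0.0159, adjusted 0.0413) and B cell markers to 0.975 to 8.29 and 5.28 to 53.2 CPM (exact p = 0.0397, adjusted 0.0737). Skeletal muscle, mesothelial and blood markers had exact p of 0.865, 0.111 and 1. Apart from the skeletal muscle and mesothelial sums, whose correlations with Prune2 within groups were -0.78 and 0.65, the sums had correlations of -0.27 to 0.29. Without young 2 these ran from -0.61 for the adipocyte sum to 0.32, and the smooth muscle sum went from -0.05 to 0.32. The mesothelial sum stayed at or below 1.34 CPM. The part of these cell types in the Prune2 difference was not tested.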

How the data were processed

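Aortic RNA of 5 young and 5 old mice was compared, 1 library per mouse, grouped by the titles in the labels. Prune2, the gene lists and the limits were chosen with earlier results of these data known. The authors made stranded libraries from mRNA, filtered reads with fastp 0.20.0, aligned them to GRCm38 with STAR 2.7.0f under GENCODE M22, and counted them per gene with featureCounts (Subread 1.6.4). The table they deposited holds whole-number counts that were not normalized, 1 line for each of 55453 symbols. The strand setting and the treatment of reads with several alignments are not given in the sources used here. The age of the old mice is that of the labels and differs slightly from the age in the paper's text.

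Genes were filtered with filterByExpr, which kept 14614 of 28011 genes with a count. Counts were fitted with edgeR 4.0.16 (TMM, robust quasi-likelihood F test, no covariate) under R 4.3.3. P-values were adjusted over all tested genes and a gene was called below 0.05. Levels are TMM-scaled CPM with SD over 5 mice. Correlations used log2 CPM with a prior count of 2 after removal of group means, which leaves 8 residual degrees of freedom. Marker sums were compared by exact two-sided permutation tests. Positions, models and lengths come from GENCODE M21 of GRCm38, and promoters from RefSeq's table for GRCm38.p6. The code for the fit and the correlations was tested on simulated data.

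Named genes were Prune2, the BCH family with Prune1, the editing enzymes, genes with a count within 1 Mb, called genes of the apoptosis list, the 10 highest and 10 lowest correlations within groups (mean CPM of at least 1, same sign at both ages), and the 5 highest over all mice. Other genes were named after their values were seen, and 1 list of 22 genes is not reported here. Alternatives were DESeq2 1.42.0, limma-voom (limma 3.58.1), DESeq2, upper-quartile and plain library scaling, no filter, a mean count of at least 10, a prior count of 0.5, the variance stabilizing transformation, the Spearman correlation, a minimum mean CPM of 1, a block for the replicate number, and omission of each mouse. Total counts were 19640401 to 22886153 per library. Libraries of a group differed 8.06 to 58.8 times more than counting error gives (chi-square over degrees of freedom, 20 pairs), so that none was a copy of another. Whether mice of a group shared a cage or litter is not given in the sources used here.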

Additional observations from a re-analysis of the deposited data

Results flagged for a closer look

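Of 124 sets of 5 values tested by Dixon's test at the 95% level, 6 held a mouse far from the others of its group, while chance flags about 1 in 20. Bnip2 had 299 CPM in old 2, and 340 to 351 CPM in the other old mice. Pdss1, among the genes that ran against Prune2 within groups, had 3.11 CPM in young 2 and 1.94 to 2.27 CPM in the other young mice. Serinc2 had 1.99 CPM in young 3 and 0.707 to 1.04 CPM in the other young mice. Skeletal muscle markers summed to 52.8 CPM in young 2, the mouse with the least Prune2 of all, and to 7.80 to 11.2 CPM in the other young mice. Macrophage markers summed to 508 CPM in old 3 and to 275 to 331 CPM in the other old mice. Mitochondrial genes took 11.001% of counts in old 2 and 5.19% to 6.51% in the other old mice. Prune2 itself was not flagged in either group.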

How the results depend on the processing

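The log2 fold change of Prune2 stayed between 2.22 (without young 2) and 2.38 (without young 3) under 18 alternatives. The 5 calls among the genes of all lists other than cell markers became 12 with DESeq2, 8 under upper-quartile scaling and 8 when only total counts were used for scaling, and 4 (without old 3) to 11 (without young 1) when 1 mouse was left out. Adar, Bid and Trp53 were called in every setting, whereas Gnaq was lost with the replicate block (adjusted p 0.0695) and Gcnt1 without a filter (0.0699) and without old 3. The 15 calls among correlated genes stayed between 12 and 19.

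The number of genes at r of 0.8 or more, 60, lay between 63 and 141 with 1 mouse left out, and the 33 genes at -0.8 or less between 42 and 124. By the Spearman correlation there were 89 and 70 genes, of which 29 and 21 were among the 60 and the 33. Without young 3 there were 63 and 42, of which 31 and 15 were shared. With the replicate block, which leaves fewer degrees of freedom, there were 663 and 813. Over all tested genes with group means removed, correlations of same-numbered mice were -0.30, -0.07, 0.10, -0.05 and 0.13. For numbers 3 and 5, the same-numbered old mouse was the best match of the young mouse. Whether the replicate numbers mark a shared batch or order is not given, and these values cannot exclude it. Under the block 1261 genes were called, of which 1165 were among the 1676. Over all genes, DESeq2 called 2304 genes, and the omission of 1 mouse left 1132 (young 4) to 2367 (young 1). Correlations over 10 mice with 8 residual degrees of freedom are imprecise, and those with Prune2 depend most on young 2 and young 3.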
